A study of Mus musculus with 36 samples.

Results

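The genes described here are 10 mediators through which stromal cells act on immune and bone cells. They comprise the colony factors Csf1, Il34 and Kitl, the alarmins Il33 and Tslp with the receptor chain Il1rl1, the adhesion molecules Vcam1 and Icam1, and the cytokine Tnfsf11 (RANKL) with its decoy receptor Tnfrsf11b (osteoprotegerin). They were taken by name, as 10 of the 55487 genes of the count table, and all 10 were among the 15489 genes with enough counts to be tested. Their RNA was measured by RNA-seq in 36 libraries of primary murine embryonic fibroblasts (MEFs), cultured from embryos after removal of head and organs and given 1 μM dexamethasone (Dex) or vehicle over 5 h. Dex is a synthetic ligand of the glucocorticoid receptor (GR). Run 1 held GRwt/wt, GRD/D (a point mutation at the dimer interface of the DNA-binding domain), GRD+L/D+L (that mutation plus one in the ligand-binding domain) and GRko/ko (no functional receptor), and run 2 held GRL/L (the ligand-binding domain mutation alone) beside further GRwt/wt cultures. Each genotype had 3 vehicle and 3 Dex libraries in its run. All samples carry the strain label FVB/NJ, but the study's methods place the mice behind the knockout on a 129 Sv background, so strain and genotype cannot be told apart for GRko/ko. The GRL and GRD+L alleles were made by CRISPR in FVB/NJ zygotes. The study used MEF cultures from 3 different mice per genotype, and each mutant was compared with GRwt/wt of its own run, so that the 3 mutants of run 1 share their GRwt/wt libraries.

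Stromal fibroblasts keep immune cells alive, recruit them and alert them. CSF1 and IL-34 both signal through the receptor CSF1R on macrophages, KITL sustains mast cells and stem cells through KIT, IL-33 and TSLP are released by stressed barrier and stromal cells, and VCAM1 and ICAM1 hold leukocytes by their integrins. RANKL drives the formation of osteoclasts through its receptor RANK, and osteoprotegerin binds RANKL and blocks it, so that the balance of both sets bone resorption. Glucocorticoids are known to lower inflammatory genes and to cause bone loss, and the GR acts on DNA both as a dimer at glucocorticoid response elements (GREs) and by other modes. Each mutant is compared with GRwt/wt of its run for how much of a change it kept. The study reports lower affinity for Dex in both alleles with the ligand-binding domain mutation, so the comparison does not assign a change to a single part of the receptor.

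Library totals were 15280166 to 19102035 counts in run 1 and 21532686 to 28662608 in run 2. The targeted gene Nr3c1, which encodes the GR, was at 15.87 to 17.97 CPM (counts scaled to a common library size by TMM) in vehicle GRko/ko against 67.15 to 74.28 CPM in GRwt/wt of run 1, a log2 difference of -2.08 (SE 0.07, adjusted p = 2.44e-23). The Dex targets Fkbp5 and Tsc22d3 had log2 fold changes of 2.58 and 1.84 in GRwt/wt of run 1, 3.70 and 3.56 in run 2, and -0.02 and 0.02 in GRko/ko. The cultures were not equal in cell makeup: the summed level of 10 macrophage genes was 185.5 to 327 CPM in vehicle GRwt/wt of run 1, 674.6 to 735.6 in GRD/D, 32.52 to 41.81 in GRD+L/D+L and 2803 to 3134 in GRko/ko, and in run 2 it was 470.9 to 495.1 in GRwt/wt and 831 to 989.8 in GRL/L. All 10 macrophage genes differed in each mutant from its own GRwt/wt, upward in GRD/D, GRko/ko and GRL/L and downward in GRD+L/D+L. The 10 fibroblast genes summed to between 20000 and 32430 CPM in every library, above the macrophage sums. Single fibroblast markers still differed in vehicle cultures: 6 of 10 were lower in GRD+L/D+L, and 4 were higher and 4 lower in GRko/ko.

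Dex lowered more of the mediators than it raised in every genotype that has a receptor. A gene passed at an adjusted p of at most 0.05 in edgeR's quasi-likelihood test over all 15489 genes. In GRwt/wt of run 1, 4 of 10 fell (Kitl, Vcam1, Tnfsf11 and Tnfrsf11b) and 1 rose (Il1rl1), where 13.9% of all genes passed, 7.74% upward and 6.20% downward. GRwt/wt of run 2 had 8 that fell and 1 that rose, against 31.6% of all genes passing, 14.9% upward and 16.7% downward. In GRD/D 5 fell and 1 rose (all genes, 11.9% passing, 5.63% upward and 6.24% downward). In GRD+L/D+L 4 fell and 1 rose (all genes, 5.00%, 3.08% upward and 1.92% downward), and in GRL/L 6 fell and 1 rose (all genes, 19.1%, 8.79% upward and 10.4% downward). Vcam1, Tnfsf11 and Tnfrsf11b fell in all 5 of these comparisons, although with the formula of the study Tnfrsf11b did not pass in GRD+L/D+L (log2 -0.39, SE 0.15, adjusted p = 0.203). The median log2 fold change of the 10 was -0.37, -0.70, -0.51, -0.28 and -0.51 in the same order, beside medians between -0.01 and 0 over all genes. In GRko/ko none of the 10 passed and 0% of all genes did by edgeR, with 859 genes at an unadjusted p under 0.05, none of them a mediator, and 1 gene by DESeq2.

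**Figure D1:**
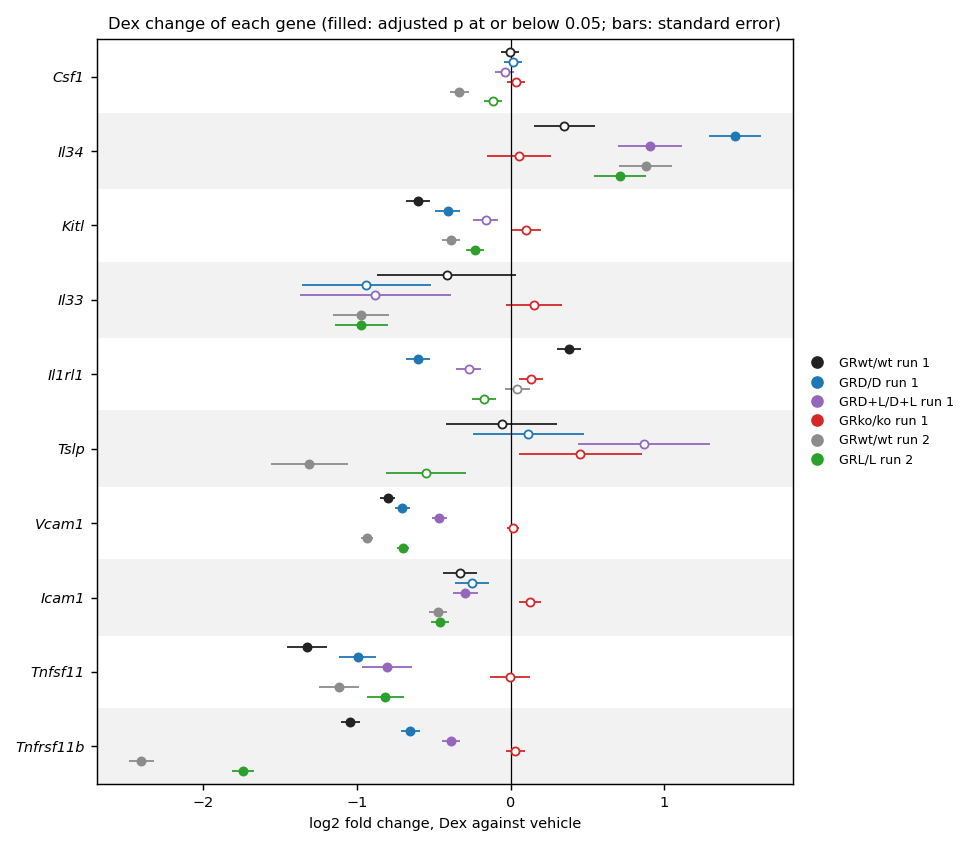
Log2 fold change (Dex against vehicle, x axis) of each of the 10 genes (y axis) in 6 comparisons, 3 libraries against 3, with bars for the standard error and filled points where the adjusted p was at most 0.05. The points of Vcam1, Tnfsf11 and Tnfrsf11b lie left of 0 and are filled in every genotype with a receptor, and those of GRko/ko are open for all 10 genes.

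In vehicle libraries, some of these genes differed between a mutant and GRwt/wt of its run. GRwt/wt of run 2 also differed from that of run 1, in 9 of 10 genes (all genes, 72.4% passing). In vehicle GRD/D only Vcam1 passed, upward, which is near the share over all genes (9.55% passing, 5.66% upward and 3.89% downward). In vehicle GRD+L/D+L 5 of 10 passed (all genes, 29.9%, 13.9% upward and 15.9% downward), with Icam1, Kitl and Vcam1 higher and Il1rl1 and Tnfsf11 lower. In vehicle GRko/ko 7 of 10 passed (all genes, 45.7%, 24.4% upward and 21.3% downward), with Il33, Icam1 and Vcam1 higher and Csf1, Kitl, Il1rl1 and Tnfsf11 lower. In vehicle GRL/L 4 of 10 passed (all genes, 11.3%, 6.88% upward and 4.47% downward), with Icam1 and Tnfrsf11b higher and Csf1 and Il1rl1 lower. In a bulk sample a lower level from fewer cells of a type and one from less RNA per cell cannot be told apart, and the part of the macrophage content in these differences was not tested. Markers of other cells moved too. Of 10 fibroblast markers, 6 were lower in GRD+L/D+L, 4 were higher and 4 lower in GRko/ko, 1 was higher in GRD/D and 1 was lower in GRL/L. The sum of 5 skeletal muscle markers was 22.38 to 28.16 CPM in vehicle GRwt/wt of run 1, 31.94 to 34.93 in GRD/D, 122.7 to 140.2 in GRD+L/D+L and 71.1 to 73.58 in GRko/ko, and 1, 1 and 4 of the 4 tested passed, all upward. In run 2 it was 21.32 to 22.03 CPM in GRwt/wt and 13.43 to 14.8 in GRL/L, where 2 were lower. Their part was not tested either.

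**Figure D2:**
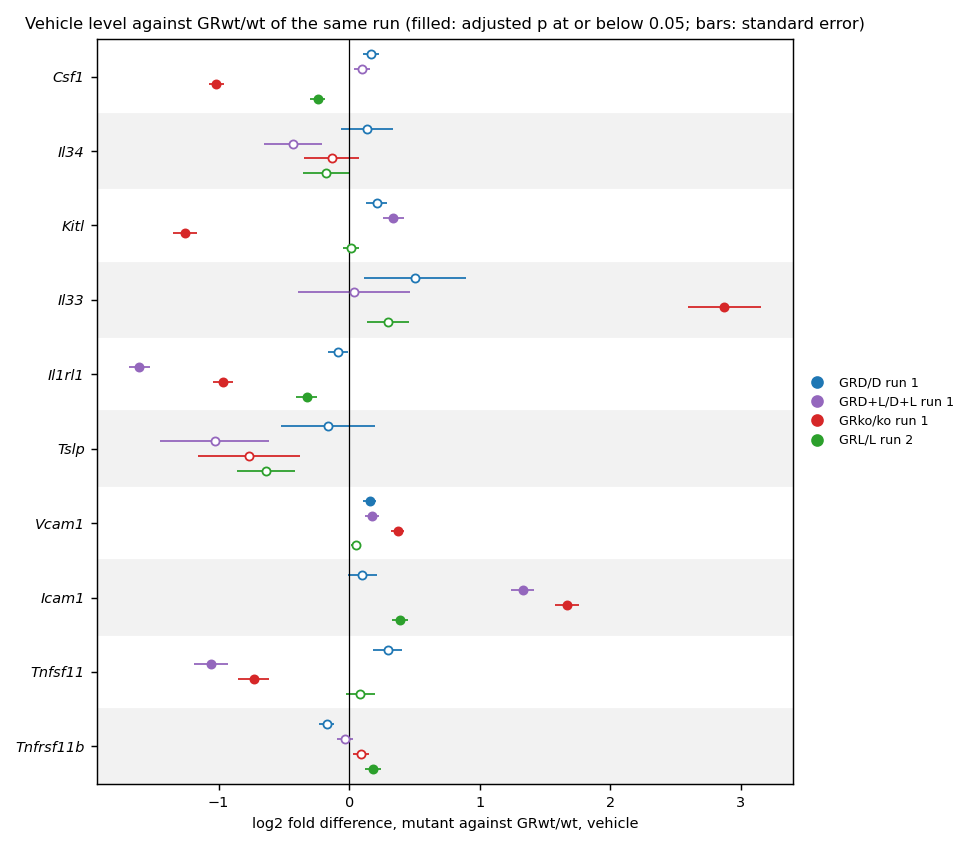
Log2 difference of the vehicle level from GRwt/wt of the same run (x axis) for each of the 10 genes (y axis) in the 4 mutants, 3 libraries against 3, with bars for the standard error and filled points where the adjusted p was at most 0.05. GRko/ko holds both the highest point, Il33 at 2.87, and low points for Kitl and Csf1 at -1.26 and -1.02, while GRD/D has 1 filled point.

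Counted by size, few of these changes reached a log2 fold change of 1 while passing. With Dex, Tnfsf11 and Tnfrsf11b did so in GRwt/wt of run 1 (2 of 10, all genes 2.01%) and with Tslp in run 2 (3 of 10, all genes 4.49%). Il34 did so in GRD/D (1 of 10, all genes 0.981%) and Tnfrsf11b in GRL/L (1 of 10, all genes 2.56%), and none in GRD+L/D+L (all genes 0.400%). In vehicle, Il1rl1, Icam1 and Tnfsf11 did so in GRD+L/D+L (3 of 10, all genes 5.57%), Csf1, Kitl, Il33 and Icam1 in GRko/ko (4 of 10, all genes 14.2%), and none in GRD/D or GRL/L (all genes 2.12% and 1.31%).

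Counted by libraries, the vehicle and Dex values did not overlap for 6 of 10 in GRwt/wt of run 1 (all genes 31.9%), 9 in run 2 (all genes 40.5%), 7 in GRD/D (all genes 23.0%), 9 in GRD+L/D+L (all genes 23.2%), 8 in GRL/L (all genes 37.4%) and 2 in GRko/ko, Kitl and Icam1 (all genes 11.4%). The vehicle libraries of a mutant and its GRwt/wt did not overlap for 4 in GRD/D (all genes 21.0%), 7 in GRD+L/D+L (all genes 44.2%), 7 in GRko/ko (all genes 54.6%) and 5 in GRL/L (all genes 32.4%).

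Per kilobase of merged exons, Csf1 had the highest group means of the 10 in run 1, from 146 to 334 FPKM (here CPM divided by exon length in kilobases). Il1rl1 reached 102 FPKM and Tnfrsf11b 52.0 FPKM in their highest groups. Kitl, Vcam1, Icam1, Tnfsf11 and Il34 had highest group means of 13.7, 11.4, 9.07, 6.94 and 4.56 FPKM. Il33 and Tslp were the lowest, with 0.148 to 2.33 and 0.295 to 1.49 FPKM over the groups, from 4 to 234 and 4 to 70 counts per library. All 10 had counts in every library.

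**Figure D3:**
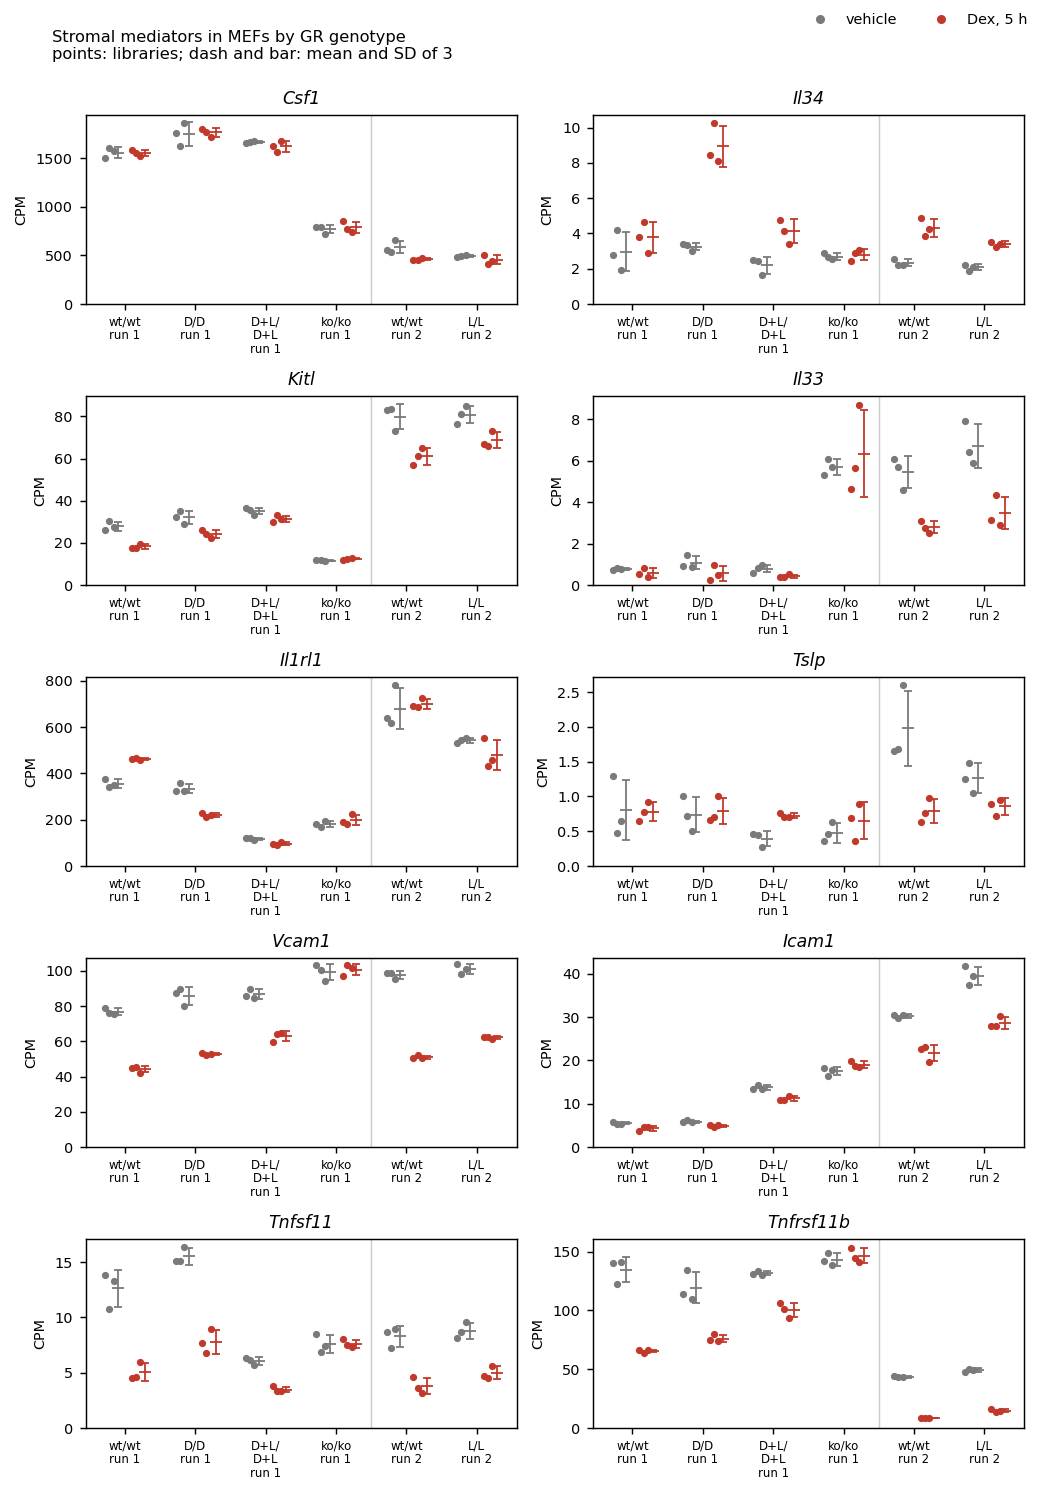
CPM (y axis, linear and starting at 0) of each of the 10 genes in vehicle (grey) and Dex (red) libraries of the 6 genotype and run combinations (x axis, with run 1 left of the line), as single libraries with the mean and SD of 3. In the panel of Il34 the 3 Dex libraries of GRD/D, at 8.102 to 10.27 CPM, stand above all others, and in that of Tnfrsf11b the Dex libraries of run 2 are the lowest.

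Of the colony factors, Csf1, the main growth factor of macrophages, changed with Dex only in GRwt/wt of run 2 and differed between cultures. It was at 1499, 1604 and 1574 CPM in vehicle and 1589, 1553 and 1522 CPM in Dex libraries of GRwt/wt of run 1. Those groups overlapped, with a log2 fold change of 0.00 (SE 0.06, adjusted p = 0.984). In vehicle GRwt/wt of run 2 it was at 559.6, 535.6 and 655.8 CPM and at 456.8, 456.4 and 476.5 CPM with Dex, a fall of 1.26-fold with all vehicle libraries above all Dex libraries (log2 -0.33, SE 0.06, adjusted p = 5.58e-05). The Dex changes of both runs of GRwt/wt differed by -0.33 (SE 0.09, adjusted p = 0.0147 for the difference, all genes 7.09% passing). The difference missed the threshold without vehicle replicate 1 of run 1 or vehicle replicate 6 of run 2 (adjusted p = 0.0523 and 0.0886). In GRD/D, GRD+L/D+L and GRL/L the log2 Dex changes were 0.01, -0.04 and -0.12, and none passed, although GRL/L did without its Dex replicate 1 (log2 -0.20, adjusted p = 0.0316).

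The vehicle level of Csf1 was 2.02-fold lower in GRko/ko, at 794.3, 797.1 and 719.5 CPM, than in GRwt/wt of run 1, without overlap (adjusted p = 2.69e-16). These GRko/ko cultures held the most macrophage RNA of all: Csf1r, the receptor of CSF1, was at 338.5 to 349.3 CPM in vehicle GRko/ko against 11.09 to 18.36 CPM in GRwt/wt of run 1. GRL/L was also lower than its GRwt/wt, at 485 to 503.4 CPM (log2 -0.24, adjusted p = 0.00748), which did not pass once vehicle replicate 6 of GRwt/wt was left out (adjusted p = 0.137). In GRD/D and GRD+L/D+L the difference from GRwt/wt was 0.16 and 0.10 and did not pass.

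Il34, the second ligand of CSF1R, was the one mediator that rose with Dex in all mutants with a receptor. In GRD/D it went from 3.415, 3.35 and 3.015 CPM to 8.45, 10.27 and 8.102 CPM, a 2.75-fold rise without overlap (log2 1.46, SE 0.17, adjusted p = 3.18e-08). The vehicle libraries of GRwt/wt of run 1 scattered, at 2.79, 4.179 and 1.946 CPM, and overlapped with the Dex libraries at 3.783, 4.668 and 2.886 CPM (log2 0.35, SE 0.20, adjusted p = 0.282). Without vehicle replicate 2, the highest, this change was 0.67 and passed (adjusted p = 0.0298). The rise in GRD/D exceeded the change in GRwt/wt by 1.11 (SE 0.26, adjusted p = 0.00800, all genes 3.29% passing). Without vehicle replicate 2 of GRwt/wt the difference was 0.79 (SE 0.26, adjusted p = 0.126), and with only the groups compared in the fit it was 1.11 (SE 0.30, adjusted p = 0.0669). It passed under 17 of 19 alternatives.

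The rise of Il34 was 1.88-fold in GRD+L/D+L (from 1.633 to 2.494 CPM up to 3.425 to 4.776 CPM, adjusted p = 0.00382), and its adjusted p was 0.0535 without vehicle replicate 3. In run 2 the rise was 1.84-fold in GRwt/wt, from 2.225 to 2.575 CPM up to 3.839 to 4.871 CPM (adjusted p = 6.29e-05), and 1.64-fold in GRL/L, from 1.898 to 2.231 CPM up to 3.236 to 3.539 CPM (adjusted p = 0.00221). In these 3 comparisons every Dex library was above every vehicle library. GRko/ko stayed within 2.438 to 3.054 CPM under both treatments. Vehicle levels of Il34 passed in no mutant. The gene had 24 to 160 counts per library, and 3.83% of its exon length overlaps the antisense gene Gm15895 and 1.12% Gm15894, whose reads cannot be told apart if the counting ignored strand, which the sources used here do not state.

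Kitl, the stem cell factor, fell with Dex in GRwt/wt of both runs. Vehicle libraries of run 1 were at 25.95, 30.14 and 27.31 CPM and Dex libraries at 17.79, 17.57 and 19.53 CPM, a fall of 1.52-fold (log2 -0.60, SE 0.08, adjusted p = 6e-07). In run 2 the level was higher and the fall 1.31-fold, from 83.21, 83.41 and 72.94 CPM to 56.91, 61.24 and 64.93 CPM (adjusted p = 4.34e-06). In both runs all Dex libraries lay below all vehicle libraries. GRD/D and GRL/L also fell, by 1.33-fold and 1.17-fold (adjusted p = 0.000262 and 0.00511).

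In GRD+L/D+L the Dex change of Kitl was -0.16 and did not pass, and it differed from that of GRwt/wt by 0.44 (SE 0.11, adjusted p = 0.0161, all genes 3.23% passing). This difference missed the threshold when any of 5 libraries was left out (vehicle replicate 2 or Dex replicate 1 or 2 of GRwt/wt, vehicle replicate 3 or Dex replicate 2 of GRD+L/D+L), with adjusted p from 0.0552 to 0.0742. In GRko/ko the Dex change was 0.10, and it differed from GRwt/wt by 0.70 (adjusted p = 0.000146, all genes 8.48% passing). Vehicle Kitl was lowest in GRko/ko, at 11.82, 11.79 and 11.19 CPM, which is 2.39-fold under GRwt/wt (adjusted p = 8.65e-15), and it was 1.26-fold higher in GRD+L/D+L, at 33.41 to 36.49 CPM (adjusted p = 0.000714).

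Csf1 and Kitl had alike profiles over the 12 groups after each run was centred (Pearson r = 0.89 over 12 group means that share libraries and runs, a description). Of the 6 mediators with a promoter in the RefSeq table of GRCm38.p6, which is mm10, these were the only ones whose 250 bases before to 50 after the start held any motif searched. The 250 bases before the start are shown for that reason, 5′ to 3′ on the strand of the gene, with the matches in capitals. Csf1 is on the minus strand at chr3:107760470-107760719 and Kitl on the plus strand at chr10:100015571-100015820.
Csf1: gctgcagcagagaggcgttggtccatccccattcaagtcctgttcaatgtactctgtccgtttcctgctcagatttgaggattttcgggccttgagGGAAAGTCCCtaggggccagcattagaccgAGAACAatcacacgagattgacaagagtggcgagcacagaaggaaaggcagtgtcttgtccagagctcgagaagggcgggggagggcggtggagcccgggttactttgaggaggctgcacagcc
Kitl: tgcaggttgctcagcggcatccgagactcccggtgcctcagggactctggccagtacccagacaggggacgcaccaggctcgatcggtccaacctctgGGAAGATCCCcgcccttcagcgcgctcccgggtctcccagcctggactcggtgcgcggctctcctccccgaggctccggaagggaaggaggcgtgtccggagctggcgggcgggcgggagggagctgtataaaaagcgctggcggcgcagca
The Csf1 stretch held the GRE half-site AGAACA at bases -124 to -119 from the start and a match to the NF-kB consensus at -154 to -145, on the other strand and without overlap between them. The Kitl stretch held an NF-kB match at -152 to -143, also on the other strand. Only full matches to a motif were counted, so a site that departs from it by a base was not found, in these or the other promoters. Of all 32851 promoters of this length, 19% held the half-site on either strand and 8.46% the NF-kB consensus. The full GRE (AGAACA, any 3 bases, TGTTCT), the AP-1 site TGANTCA and the inverted repeat of CTCC and GGAGA with 0 to 2 bases between occurred in 0.00913%, 7.81% and 1.72% of them and in none of the 8 promoters of these genes.

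Among the alarmins, Il33 stood out by its vehicle level. It was at 0.7137, 0.8221 and 0.7785 CPM in GRwt/wt of run 1 and at 5.293, 6.066 and 5.689 CPM in GRko/ko, 7.33-fold higher without overlap (log2 2.87, SE 0.28, adjusted p = 6.85e-11). GRD/D and GRD+L/D+L, at 0.8933 to 1.428 and 0.5907 to 0.9525 CPM, did not pass. GRwt/wt of run 2 was at 6.067, 5.69 and 4.605 CPM, which is 7.04-fold above GRwt/wt of run 1 (adjusted p = 1.86e-11). Macrophage genes and cartilage genes moved along with GRko/ko: the sum of the cartilage markers was 179.6 to 521.3 CPM in its vehicle libraries against 18.75 to 21.02 CPM in GRwt/wt. Their part in the level of Il33 was not tested.

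With Dex, Il33 fell in run 2, to 3.089, 2.737 and 2.519 CPM in GRwt/wt and from 7.909, 6.391 and 5.873 to 3.129, 4.343 and 2.897 CPM in GRL/L. Both falls were 1.96-fold (log2 -0.97 in each, SE 0.18 and 0.17, adjusted p = 6.32e-05 and 4.31e-05), without overlap of vehicle and Dex. In run 1 the log2 changes were -0.42 in GRwt/wt, -0.94 in GRD/D and -0.88 in GRD+L/D+L with SE of 0.42 to 0.49, and none passed. These libraries held 4 to 26 counts of Il33, against 67 to 234 in run 2 and 80 to 145 in GRko/ko. In GRko/ko, where Il33 was at 5.293 to 6.066 CPM in vehicle, the change was 0.15 (SE 0.18).

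Il1rl1 encodes ST2, the receptor chain of IL-33, and it was the one mediator for which a rise passed in one genotype and a fall in another. In GRwt/wt of run 1 it rose from 376, 339.9 and 350.4 CPM to 462.3, 464.8 and 460.1 CPM (log2 0.38, SE 0.08, adjusted p = 0.000459). In GRD/D it fell from 322.2, 358.6 and 323.7 CPM to 231.2, 211.6 and 218.6 CPM (log2 -0.60, SE 0.08, adjusted p = 6.05e-07). Vehicle and Dex libraries were apart in both. The difference of -0.98 passed (SE 0.11, adjusted p = 6.97e-08), as did that of GRD+L/D+L from GRwt/wt, at -0.65 (SE 0.12, adjusted p = 0.000218).

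In GRD+L/D+L itself Il1rl1 went from 120.2, 119.5 and 110.4 CPM to 96.4, 89.73 and 103.8 CPM, groups that did not overlap (log2 -0.27, adjusted p = 0.0534 with edgeR, 0.0328 with DESeq2 and 0.0407 without Dex replicate 3). The fall also passed with no filter on low counts, at least 10 counts in every library, only the groups compared and the replicate block (adjusted p = 0.00016, 0.0467, 4.54e-06 and 0.0272). It did not pass under the other alternatives. In run 2 there was no passing change: the log2 values were 0.04 in GRwt/wt, at 616.8 to 781.6 CPM in vehicle and 686.5 to 726.2 CPM with Dex, and -0.17 in GRL/L, where the change was -0.29 and passed without Dex replicate 1 (adjusted p = 0.00709). The rise in GRwt/wt of run 1 was thus not seen in run 2, and the difference of both runs was -0.34 (adjusted p = 0.0551). It fell under the threshold without vehicle replicate 1 of run 1 or vehicle replicate 4 or 5 of run 2 (adjusted p = 0.0485, 0.0464 and 0.0251). The same held with no filter, at least 10 counts in every library and the replicate block (adjusted p = 0.000118, 0.0478 and 0.0333), but not under the other alternatives. In GRko/ko the change was 0.13 and did not pass.

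The vehicle level of Il1rl1 was 3.05-fold lower in GRD+L/D+L (adjusted p = 1.5e-17), 1.95-fold lower in GRko/ko at 183.5, 168.8 and 193.7 CPM (adjusted p = 9.05e-13) and 1.25-fold lower in GRL/L at 531.8 to 552.7 CPM (adjusted p = 0.00322, and 0.0803 without vehicle replicate 6 of GRwt/wt). In GRD/D it differed from GRwt/wt by -0.09, with overlap. The macrophage sum of run 1 was lowest in GRD+L/D+L and highest in GRko/ko, and the part of cell makeup in the level of Il1rl1 was not tested. Il1rl1 has 2 starts in the RefSeq table of GRCm38.p6, just after chr1:40429320-40429569 and chr1:40439379-40439628 on the plus strand, and the gene-level counts do not separate the soluble from the membrane form of ST2. Il1rap, the second chain of the receptor, did not change with Dex in GRwt/wt of either run and was lower in vehicle cultures of all 4 mutants, by -0.24 in GRD/D, -0.50 in GRD+L/D+L, -0.87 in GRko/ko and -0.35 in GRL/L.

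Tslp, an alarmin best known from epithelium, was scarce. It passed in 1 Dex comparison, GRwt/wt of run 2, where it fell from 1.658, 1.678 and 2.6 CPM to 0.6336, 0.7603 and 0.9775 CPM without overlap, 2.48-fold (log2 -1.31, SE 0.25, adjusted p = 7.12e-05). In GRL/L it went from 1.251, 1.487 and 1.056 to 0.8941, 0.7239 and 0.954 CPM, also without overlap but short of the threshold (adjusted p = 0.148). In GRD+L/D+L the values went the other way, from 0.4594, 0.4477 and 0.2722 CPM to 0.7641, 0.702 and 0.7108 CPM, without overlap and short of the threshold (log2 0.87, SE 0.43, adjusted p = 0.343). Vehicle libraries of GRwt/wt of run 1 were at 1.298, 0.4796 and 0.6487 CPM, and the Dex libraries lay within that range. The fall in GRwt/wt of run 2 passed under 12 of 12 alternatives, with log2 values from -1.49 to -0.89, each library left out included. No vehicle comparison of a mutant with its GRwt/wt passed for Tslp. Vehicle Tslp was below GRwt/wt and passed in GRD+L/D+L and GRko/ko without vehicle replicate 2 of GRwt/wt (adjusted p = 0.0243 and 0.0409), and in GRL/L without vehicle replicate 4 of GRwt/wt (adjusted p = 0.0478). Of the epithelial genes, 2 of 3 tested markers passed downward with Dex in GRwt/wt of run 2. The sum of the 5 listed markers was 2.822 to 47.87 CPM in vehicle (mean 18) and 2.357 to 7.564 CPM with Dex. The high vehicle sum came from a single library, and the other vehicle libraries lay within the Dex range. In GRL/L no epithelial marker passed, and the sum was 1.149 to 1.287 CPM in vehicle. The part of epithelial cells in the fall of Tslp was not tested. Its receptor chain Crlf2 rose by 0.26 in GRwt/wt of run 2 (adjusted p = 0.0298) and passed in no other Dex comparison.

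Vcam1, which holds lymphocytes and monocytes by the integrin of Itga4 and Itgb1, fell with Dex in every genotype with a receptor. In GRwt/wt of run 1 it went from 78.96, 76.11 and 75.64 CPM to 44.98, 45.58 and 42.12 CPM (log2 -0.80, SE 0.05, adjusted p = 1.23e-15). In run 2 it went from 98.83, 99.02 and 95.23 CPM to 50.85, 52 and 50.38 CPM (log2 -0.94, SE 0.04, adjusted p = 3.49e-19). The libraries of each group lay close together, and in neither run did vehicle and Dex overlap. GRD/D fell from 80.29 to 89.91 CPM down to 52.1 to 53.34 CPM (log2 -0.70, adjusted p = 1.32e-13), which is 88.2% of the log2 change in GRwt/wt, with a difference of 0.09 that did not pass (SE 0.07, adjusted p = 0.703).

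The fall of Vcam1 was smaller in GRD+L/D+L, from 84.57 to 89.86 CPM down to 59.85 to 64.94 CPM (log2 -0.46, SE 0.05, adjusted p = 3.86e-09), and this was 58.1% of the change in GRwt/wt with a difference of 0.33 that passed (SE 0.07, adjusted p = 0.00131). In GRL/L it was -0.70, or 75% of GRwt/wt of run 2, with Dex libraries at 61.55 to 62.72 CPM. That difference of 0.23 was at the threshold (SE 0.06, adjusted p = 0.0378, all genes 1.85% passing), and it missed it when any of 9 libraries was left out (Dex replicate 1, 2 or 3 or vehicle replicate 2 or 3 of GRL/L, Dex replicate 4 or 6 or vehicle replicate 4 or 5 of GRwt/wt), with adjusted p from 0.0610 to 0.127. The GRL/L difference also missed the threshold with no filter and with the formula of the study (adjusted p = 0.236 and 0.22). So it did with only the groups compared and with the replicate block (adjusted p = 0.0773 and 0.0805). GRko/ko libraries were between 94.56 and 103.6 CPM under both treatments, and the difference of 0.82 from GRwt/wt passed (adjusted p = 7.98e-12).

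Vehicle levels of Vcam1 were 1.29-fold higher in GRko/ko than in GRwt/wt (adjusted p = 1.17e-08), 1.13-fold higher in GRD+L/D+L (adjusted p = 0.00344) and 1.12-fold higher in GRD/D, where the adjusted p of 0.0214 was above 0.05 without vehicle replicate 1 or 2 of GRD/D or vehicle replicate 2 or 3 of GRwt/wt (adjusted p from 0.0632 to 0.160). For GRD/D no filter, the formula of the study and only the groups compared also gave adjusted p of 0.165, 0.0683 and 0.331. GRL/L, at 98.14 to 104 CPM, did not differ past the threshold from its GRwt/wt. Of its integrin genes, Itga4 changed with Dex by -0.24 and Itgb1 by 0.17 in GRwt/wt of run 2, and both passed. In GRwt/wt of run 1 they changed by 0.02 and 0.01, and neither passed. An antisense gene covers 0.688% of the exon length of Vcam1.

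Icam1, the ligand of the integrin of Itgal and Itgb2, differed between genotypes in its vehicle level. It was at 5.71, 5.344 and 5.384 CPM in GRwt/wt of run 1, at 5.695 to 6.152 CPM in GRD/D, at 13.52, 14.39 and 13.4 CPM in GRD+L/D+L and at 18.23, 16.44 and 17.7 CPM in GRko/ko. GRD+L/D+L was thus 2.51-fold and GRko/ko 3.18-fold above GRwt/wt without overlap (adjusted p = 7.41e-14 and 3.28e-18), and GRD/D did not pass. The macrophage sum was lowest of all groups in GRD+L/D+L and highest in GRko/ko, and the part of cell makeup in the level of Icam1 was not tested. GRwt/wt of run 2 was at 29.72 to 30.47 CPM and GRL/L was 1.31-fold higher, at 41.74, 37.46 and 39.46 CPM (adjusted p = 4.67e-06).

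Dex lowered Icam1 in run 2, to 22.73, 23.04 and 19.63 CPM in GRwt/wt (log2 -0.47, SE 0.06, adjusted p = 4.9e-08) and to 27.9, 27.98 and 30.28 CPM in GRL/L (log2 -0.46, SE 0.06, adjusted p = 5.15e-08), and the difference between them was 0.01 (SE 0.08, adjusted p = 0.984). In run 1 the changes were -0.33 in GRwt/wt (adjusted p = 0.0840), -0.25 in GRD/D (adjusted p = 0.186) and -0.30 in GRD+L/D+L, where all Dex libraries, at 10.91 to 11.82 CPM, lay below all vehicle libraries (adjusted p = 0.0227, but 0.0523 with DESeq2 and 0.0956 to 0.116 without Dex replicate 1, Dex replicate 2 or vehicle replicate 2). With no filter and with the replicate block the change in GRD+L/D+L did not pass either (adjusted p = 0.151 and 0.0618). In GRwt/wt and GRD/D of run 1 vehicle and Dex also did not overlap, at 63 to 112 counts per library. GRko/ko changed by 0.12, and its difference of 0.45 from GRwt/wt passed with edgeR (adjusted p = 0.0328) and not with DESeq2 (adjusted p = 0.0721). It also missed the threshold without any vehicle replicate or Dex replicate 1 of GRwt/wt, or without Dex replicate 1 or vehicle replicate 2 of GRko/ko (adjusted p from 0.0510 to 0.211). The same held with no filter, only the groups compared and the replicate block (adjusted p = 0.148, 0.0554 and 0.0606). The antisense gene Gm47079 covers 11.7% of the exon length of Icam1, so part of its counts could be of that gene.

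Both genes of the RANKL axis fell with Dex in every genotype with a receptor. Tnfsf11 (RANKL) went from 13.88, 10.76 and 13.3 CPM to 4.551, 4.603 and 6.017 CPM in GRwt/wt of run 1, 2.50-fold lower (log2 -1.32, SE 0.13, adjusted p = 6.57e-10). In run 2 it went from 8.641, 7.221 and 8.988 CPM to 4.633, 3.649 and 3.196 CPM, 2.17-fold lower (log2 -1.12, SE 0.13, adjusted p = 3.96e-09). No Dex library reached the lowest vehicle library in either run. The falls were 1.99-fold in GRD/D (15.07 to 16.42 down to 6.801 to 8.973 CPM), 1.75-fold in GRD+L/D+L (5.715 to 6.366 down to 3.319 to 3.757 CPM) and 1.76-fold in GRL/L (8.112 to 9.569 down to 4.556 to 5.653 CPM), with adjusted p of 1.02e-07, 0.000920 and 1.28e-06. These falls were 75.1%, 60.7% and 72.9% of the log2 change in the matching GRwt/wt, and none of the 3 differences passed (0.33, 0.52 and 0.30, SE 0.17 to 0.21).

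GRko/ko was the exception, at 6.916 to 8.527 CPM in vehicle and 7.305 to 8.009 CPM with Dex, and its difference of 1.32 from GRwt/wt passed (SE 0.19, adjusted p = 2.38e-06). Vehicle Tnfsf11 was 2.08-fold lower in GRD+L/D+L and 1.66-fold lower in GRko/ko than in GRwt/wt of run 1 (adjusted p = 4.39e-08 and 5.47e-06). GRD/D and GRL/L did not pass, at log2 differences of 0.30 and 0.09. The vehicle libraries of GRD+L/D+L were the lowest of the vehicle libraries of run 1. As the gene with the largest fall in GRwt/wt of run 1, its 250 bases before the start are shown, on the minus strand at chr14:78308044-78308293 of GRCm38.p6, 5′ to 3′. They hold none of the motifs searched.
Tnfsf11: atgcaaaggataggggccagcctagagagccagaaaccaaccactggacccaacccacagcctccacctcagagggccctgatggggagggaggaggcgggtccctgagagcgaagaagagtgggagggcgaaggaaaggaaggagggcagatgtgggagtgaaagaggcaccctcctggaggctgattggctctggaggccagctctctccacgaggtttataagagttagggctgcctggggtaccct

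Tnfrsf11b (osteoprotegerin) fell in GRwt/wt of both runs, and further in run 2. In GRwt/wt of run 1 it fell from 140.1, 122.3 and 141.6 CPM to 65.96, 64.18 and 66.07 CPM, 2.06-fold (log2 -1.04, SE 0.06, adjusted p = 3.67e-16). In run 2 it fell from 44.02, 43.26 and 43.08 CPM to 8.237, 8.173 and 8.234 CPM, 5.29-fold (log2 -2.40, SE 0.08, adjusted p = 1.65e-24). The Dex libraries of run 2 held 208 to 219 counts and were the lowest of all 36. The falls of both runs differed by -1.36 (SE 0.10, adjusted p = 1.11e-12).

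In every mutant the fall of Tnfrsf11b was smaller than in GRwt/wt of its run. GRD/D went from 114.3, 134.1 and 109.7 CPM to 74.67, 79.69 and 73.79 CPM, or 62.5% of the log2 change in GRwt/wt, with a difference of 0.39 (SE 0.09, adjusted p = 0.00333). GRD+L/D+L went from 131.1, 133.3 and 130.1 CPM to 106.1, 101.4 and 93.89 CPM, or 37.2%, with a difference of 0.65 (SE 0.08, adjusted p = 1e-06). GRL/L went from 47.42, 50.62 and 49.72 CPM to 15.94, 13.97 and 14.27 CPM, or 72.4% of GRwt/wt of run 2, with a difference of 0.66 (SE 0.10, adjusted p = 7.42e-05). Vehicle and Dex did not overlap in these 3 mutants. GRko/ko, at 138.6 to 153.4 CPM, did not fall, and differed from GRwt/wt by 1.07 (adjusted p = 3e-12).

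The call in GRL/L depends on which GRwt/wt cultures are used: with the formula of the study, in which GRwt/wt of both runs share 1 estimate, the difference was -0.15 (adjusted p = 0.896). Between GRD+L/D+L and GRD/D the Dex change of none of the 10 genes passed (all genes, 0.0775% passing by edgeR, 12 genes, and 58 by DESeq2). The differences were 0.26 for Tnfrsf11b (SE 0.08, adjusted p = 0.234), 0.24 for Vcam1 (SE 0.07, adjusted p = 0.142) and 0.33 for Il1rl1 (SE 0.12, adjusted p = 0.288, and 0.00783 with no filter on low counts). Kitl, Il1rl1, Vcam1 and Tnfrsf11b were under 0.05 before adjustment there. Vehicle Tnfrsf11b passed in GRL/L, 1.13-fold higher than GRwt/wt (adjusted p = 0.0469), but not without any one of the 6 libraries (adjusted p from 0.0551 to 0.175). In GRD/D it was 1.13-fold lower and did not pass (adjusted p = 0.0530), and passed without vehicle replicate 2 of GRD/D or of GRwt/wt (adjusted p = 0.00136 and 0.00809).

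Since Tnfsf11 and Tnfrsf11b both fell, the ratio of their reads was formed within each library, where scaling between libraries cancels. Per 1000 Tnfrsf11b reads, GRwt/wt of run 2 had 196.3, 166.9 and 208.6 Tnfsf11 reads in vehicle and 562.5, 446.5 and 388.1 with Dex, a 2.42-fold higher ratio. GRL/L rose 1.89-fold, from 171.1, 171.9 and 192.4 to 296.7, 326.2 and 396. In run 1 the ratio did not rise: it went from 99.07, 87.96 and 93.95 to 69, 71.72 and 91.08 in GRwt/wt with overlap, a log2 change of -0.29. GRD/D changed by -0.35 with overlap, GRko/ko by -0.03, and GRD+L/D+L by -0.42, from 43.93 to 48.55 down to 32.72 to 35.79. The two-sided exact permutation test gave p = 0.1 for GRwt/wt of run 2, GRL/L and GRD+L/D+L, the smallest p that 3 against 3 libraries allow, and 0.2, 0.2 and 0.7 for GRwt/wt of run 1, GRD/D and GRko/ko. Of 4 tested osteoblast markers, 2 fell with Dex in GRwt/wt of run 2 and 2 in GRL/L (all genes, 16.7% and 10.4% falling). In run 1 none passed with Dex in any genotype. The part of osteoblast RNA in the falls and the ratio was not tested.

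**Figure D4:**
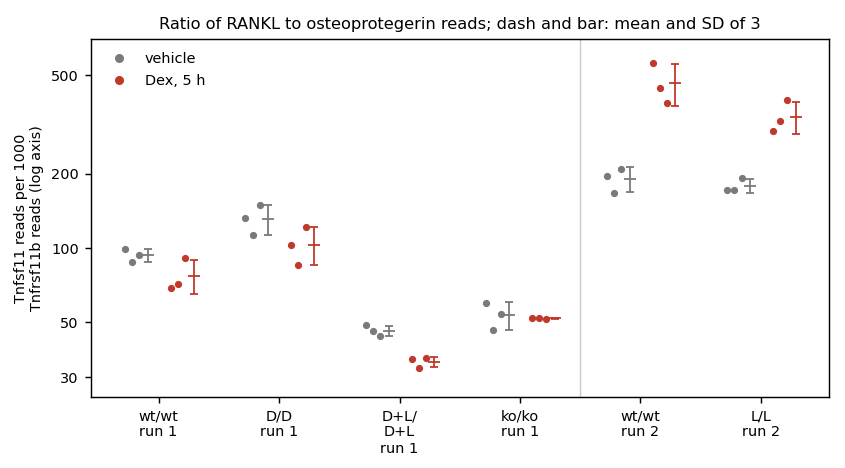
Tnfsf11 reads per 1000 Tnfrsf11b reads (y axis, log axis) in single vehicle (grey) and Dex (red) libraries of the 6 genotype and run combinations (x axis), with the mean and SD of 3. Dex libraries lie above vehicle libraries in both genotypes of run 2, and in run 1 they lie below or among them.

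GRwt/wt itself differed between runs in 9 of the 10 genes at the vehicle level (all genes, 72.4% passing). Icam1, Kitl, Il1rl1, Il33, Tslp and Vcam1 were higher in run 2, by 5.51-fold for Icam1 and 2.87-fold for Kitl, and Csf1, Tnfsf11 and Tnfrsf11b were lower, by 2.67-fold, 1.53-fold and 3.10-fold. Il34 did not pass. The Dex change differed between runs for Csf1 and Tnfrsf11b. Run, culture and library depth cannot be told apart here, which is why levels are compared within a run.

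Lists of receptors, partners and pathway genes were counted beside the mediators. In the list of colony factor receptors and partners, 0 of 11 tested genes rose and 1 fell in GRwt/wt of run 1, and 3 fell in run 2, where 13.9% and 31.6% of all genes passed. In the list of alarmin and interleukin-1 signalling genes, 2 of 17 rose and 2 fell in run 1, and 3 rose and 4 fell in run 2, beside the same 13.9% and 31.6%. Il1rn, the antagonist of the interleukin-1 receptor, had log2 changes of 1.18 and 1.21 in GRwt/wt of both runs (adjusted p = 1.21e-06 and 1.19e-13) and 1.01 in GRL/L, but 0.35 in GRD/D and 0.06 in GRD+L/D+L, which did not pass. Irak3, an inhibitor of this signalling, rose in GRwt/wt by 0.84 and 0.43, and Irak2, an activating kinase, fell by 0.26 and 0.53 on the log2 scale.

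Of the adhesion genes, 3 of 21 rose and 1 fell in GRwt/wt of run 1, and 2 rose and 6 fell in run 2 (all genes, 13.9% and 31.6% passing). Ezr, which ties adhesion molecules to the cytoskeleton, rose by 0.68 and 0.72 in GRwt/wt, by 0.32 in GRL/L and by 0.23 in GRD/D. Selp, the leukocyte selectin of endothelium and platelets, had -0.54 in run 1 (adjusted p = 0.0601) and -2.15 in run 2 (adjusted p = 9.16e-08). In the list of RANKL and tumour necrosis factor family genes, 1 of 19 rose and 3 fell in GRwt/wt of run 1, and 0 rose and 11 fell in run 2 (all genes, 6.20% and 16.7% falling). Tnfsf15 and Lgr4, a further receptor of RANKL, fell in all 5 comparisons with a receptor, Lgr4 by 0.30, 1.03, 0.73, 0.56 and 0.67 on the log2 scale in GRwt/wt of run 1 and run 2, GRD/D, GRD+L/D+L and GRL/L. Tnfrsf11a, the receptor RANK, passed in no Dex comparison. The Dex response controls rose in 6 of 6 cases in GRwt/wt of both runs and in GRL/L, whereas in GRD/D and GRD+L/D+L 5 rose and Dusp1 fell.

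In vehicle cultures Csf1r, Itgal and Itgb2 followed the macrophage sums, but Itga4 did not. Itga4 was at 27.4 to 32.57 CPM in GRwt/wt of run 1 and 27.69 to 35.49 in GRko/ko. It was lower both in GRD/D, at 13.18 to 14.26 CPM, and in GRD+L/D+L, at 12.21 to 13.11 CPM. Csf1r, Itgal and Itgb2 were higher in GRko/ko by log2 4.65, 4.80 and 3.69 and lower in GRD+L/D+L by -1.72, -3.61 and -2.96. Of the listed genes other than the mediators, vehicle GRko/ko had 5 higher and 2 lower among 11 tested colony factor partners, 6 and 3 among 17 alarmin genes, 8 and 7 among 21 adhesion genes and 10 and 3 among 19 RANKL and tumour necrosis factor genes, where 24.4% of all genes were higher and 21.3% lower. Csf1r, Itgal and Itgb2 were also higher in GRD/D by 1.46, 1.55 and 1.5 and in GRL/L by 1.08, 1.44 and 0.70. Kit, the receptor of KITL, had 1 to 25 counts per library, and the mast cell genes Cpa3 and Fcer1a were at 0 in most groups.

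For each mediator, the gene with the most similar profile over the 12 group means, after each run was centred, was sought among the 11772 genes that averaged 50 or more counts. The highest Pearson r were 0.988 for Csf1 with Ak1, 0.945 for Il34 with Flt1, 0.978 for Kitl with Mapk9, 0.995 for Il33 with Tlr2, 0.922 for Il1rl1 with Cr1l and 0.930 for Tslp with Filip1l. They were 0.984 for Vcam1 with Lef1, 0.989 for Icam1 with Casc4, 0.968 for Tnfsf11 with Fam98b and 0.981 for Tnfrsf11b with Ttyh2. Among the mediators themselves, Vcam1 and Tnfrsf11b had r = 0.89, Il33 and Vcam1 0.74, and Csf1 and Il33 -0.87. These values are maxima or ranks over many pairs and group means that share libraries, and are given as a description.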

How the data were processed

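RNA-seq gene counts of 36 libraries (12 groups of 3) were used as the authors deposited them. Per the study's methods and the submitters' processing notes, TruSeq libraries were sequenced on an Illumina NextSeq and aligned to mm10 with HISAT2 2.1.0 and counted with featureCounts 2.0.0 on uniquely mapped reads. The annotation release and strand setting are not given in the sources used here. Samples were grouped by their labels, which do not tie the vehicle and Dex libraries of a number to one culture. The p-values set a difference against the spread between libraries within groups, estimated over all 12 groups. The common biological coefficient of variation, the relative spread within groups beyond counting noise, was 0.0513. Each genotype was seen in few cultures, and cell makeup differed between genotypes. A small p-value for a vehicle level thus describes these cultures and need not hold for the genotype at large.

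Counts were scaled by TMM and tested in R 4.3.3 with edgeR 4.0.16 (quasi-likelihood F test, limma 3.58.1) in 1 model of 12 group means over the 15489 genes kept by filterByExpr, which held 99.93% of all counts. Contrasts were taken within a run, with Benjamini-Hochberg adjustment over all tested genes and a threshold of 0.05. Standard errors were approximated from the fold change and its F statistic. This design differs from the formula of the study, which was run as an alternative beside DESeq2 1.42.0, its size factors, no filter, at least 10 counts in every library, only the groups compared, a replicate block, a minimum size of 1 on the log2 scale, and each library left out. The steps were tested on simulated data. Library totals bear on the precision, and the standard errors also hold the spread between libraries.

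All 10 mediators were named, with the partners and listed genes that the design set out. Members and lists were chosen with earlier results of these data known. Exon lengths and overlaps came from GENCODE M21 (GRCm38) and promoters from RefSeq (GRCm38.p6), in which 6 of the 10 genes were matched. The 10 nM experiment of the study was not analysed here.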

Additional observations from a re-analysis of the deposited data

Results flagged for a closer look

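The Dex change differed between genotypes or runs, by a test of the difference itself (edgeR's quasi-likelihood test, adjusted p at most 0.05), in 16 cases. Relative to GRwt/wt of run 1, GRD/D differed by 1.11 for Il34, -0.98 for Il1rl1 and 0.39 for Tnfrsf11b on the log2 scale. GRD+L/D+L differed by 0.44 for Kitl, -0.65 for Il1rl1, 0.33 for Vcam1 and 0.65 for Tnfrsf11b. GRko/ko differed by 0.70 for Kitl, 0.82 for Vcam1, 0.45 for Icam1, 1.32 for Tnfsf11 and 1.07 for Tnfrsf11b. Relative to GRwt/wt of run 2, GRL/L differed by 0.23 for Vcam1 and 0.66 for Tnfrsf11b. GRwt/wt of run 2 differed from that of run 1 by -0.33 for Csf1 and -1.36 for Tnfrsf11b. In that order, 3, 4, 5, 2 and 2 of 10 passed, beside 3.29%, 3.23%, 8.48%, 1.85% and 7.09% of all genes. Il34 in GRD/D, Kitl in GRD+L/D+L, Icam1 in GRko/ko, Vcam1 in GRL/L and Csf1 between runs missed the threshold under some alternatives. With the formula of the study the difference of Tnfrsf11b in GRL/L turned to -0.15. The 3 mutants of run 1 were set against the same GRwt/wt libraries.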

How the results depend on the processing

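Of the 10 mediators, the number passing changed by over 1.5 times as follows. With a minimum size of 1 on the log2 scale, Dex changes passed for 2 in GRwt/wt of run 1, 3 in run 2, 1 in GRD/D, 0 in GRD+L/D+L and 1 in GRL/L, and vehicle levels for 0 in GRD/D, 3 in GRD+L/D+L, 4 in GRko/ko and 0 in GRL/L. With the formula of the study, 10 passed for Dex in GRwt/wt, whose runs are then pooled, 3 for vehicle GRD/D and 0 for the GRL/L difference, where that of Tnfrsf11b turned from 0.66 to -0.15. Vehicle GRD/D had 2 under DESeq2, DESeq2 size factors and at least 10 counts in every library, and 0 with only the groups compared. The GRL/L difference had 1 with no filter and with only the groups compared, and the difference of GRD+L/D+L from GRD/D had 1 with no filter. The cause was not tested.

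Leaving out 1 library gave 0 to 2 for vehicle GRD/D, 1 to 4 for vehicle GRL/L, 1 to 2 for the GRL/L difference and 1 to 3 for the difference between runs of GRwt/wt. Same-numbered libraries did not deviate together (r from -0.079 to 0.116 over 18 pairs). With the replicate block, 2 passed for vehicle GRD/D and 1 for the GRL/L difference.

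Over all genes, the calls went from 2159 to 5207 for Dex in GRwt/wt of run 1 with the formula of the study. With only the groups compared they went from 1838 to 704 for Dex in GRD/D, from 774 to 1507 in GRD+L/D+L and from 1479 to 643 for vehicle GRD/D. In GRko/ko 110 genes passed with no filter against 0. The differences from GRwt/wt went from 509 to 1105 in GRD/D, 501 to 1227 in GRD+L/D+L, 1314 to 2310 in GRko/ko and 286 to 115 in GRL/L with the formula of the study. Against 12 for GRD+L/D+L less GRD/D, 58 passed with DESeq2, 87 with no filter, 7 with only the groups compared, 2 with the replicate block and 0 with DESeq2 size factors or the formula of the study. That count was 0 to 21 when a library was left out, Dex in GRD/D had 1139 without its Dex replicate 2, vehicle GRD/D had 933 without vehicle replicate 3 of GRwt/wt, and the GRL/L difference had 190 without vehicle replicate 5 of GRwt/wt. In GRko/ko up to 6 passed without 1 library. With only the groups compared, the GRD+L/D+L difference had 869. The minimum size of 1 left 311 of 2159, 695 of 4901, 152 of 1838, 62 of 774 and 396 of 2966 for Dex in the order above, and 329 of 1479, 863 of 4627, 2200 of 7071 and 203 of 1757 for vehicle levels. Vehicle GRwt/wt of run 2 against run 1 went from 11208 to 3535. The lowest libraries of Il33 and Tslp held 4 counts.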
